A study of Mus musculus with 4 samples.

Results

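The genes followed here are 10 of the 32285 genes of the deposited matrices: Ager, Hopx, Akap5, Cldn18, Krt7, Krt8, Krt18, Krt19, Cldn4 and Sfn. They were chosen by symbol, as genes known for the flat alveolar type 1 cell of the lung and for the transitional state that alveolar type 2 cells pass through on the way to it, and all 10 symbols were found. The data are single-cell RNA-seq from the lungs of mice that received bacterial lipopolysaccharide (LPS) or saline (PBS) into the trachea, with or without a low dose of X-rays to the chest. Dissociated lung cells were enriched for mononuclear cells on Ficoll of grade 1.084 and loaded for a target of 10000 cells a library with the droplet kit of version 3.1 that reads the 3′ end of transcripts.

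All mice were wild-type C57BL/6 males aged 6 to 7 weeks. The LPS+RT group received 200 µg LPS from Escherichia coli and 1 Gy of X-rays to the thorax the next day. The LPS group received the same LPS and no X-rays. The PBS+RT group received 100 µL PBS and the same 1 Gy, and the PBS group received 100 µL PBS alone. Time after injection was 48 h in every group, which is 24 h after the X-rays in the irradiated groups. Each group is 1 library, and the labels do not give the number of mice behind it. There is therefore no replicate within a group and no test of any difference: intervals and floors below cover counting error only, and a difference between libraries can be a difference between mice or preparations. All libraries carry the same batch label.

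Alveolar type 1 cells are thin cells that cover most of the gas-exchange surface, and alveolar type 2 cells are cuboid cells that make surfactant and serve as progenitors for type 1 cells after injury. In mouse models of injury, cells between these types turn on simple-epithelium keratins, most of all Krt8, together with Cldn4 and Sfn, before type 1 genes rise. Simple-epithelium keratins form filaments as pairs of an acidic and a basic chain, of which Krt18 and Krt19 are acidic and Krt7 and Krt8 basic.

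After filtering and removal of doublets 33720 cells were kept, with 9598 in LPS+RT, 8986 in LPS, 6222 in PBS+RT and 8914 in PBS. The libraries held between 65995600 and 80013887 UMIs (unique molecular identifiers, 1 per captured transcript), and the median per kept cell was 4249 in LPS+RT, 5568 in LPS, 8551.5 in PBS+RT and 4285.5 in PBS. Cells were clustered and the clusters named from markers, with the 10 genes left out of both steps, so that their levels by class are not set by the class names. The class with all 10 of its 10 markers (among them Rtkn2, Pdpn, Aqp5 and Col4a3) is called alveolar type 1-like and held 344 cells in LPS+RT, 113 in LPS, 337 in PBS+RT and 389 in PBS. It was made of 2 clusters. Cluster 10 held 1077 cells with a median of 1705 UMIs, 0.325 of the median of its cells' own libraries, and kept its name because the marker Igfbp2 led its genes, and cluster 36 held 106 cells with a median of 18506 UMIs, of which 25 were in LPS+RT, 4 in LPS, 42 in PBS+RT and 35 in PBS. The alveolar type 2-like class (Sftpc, Slc34a2 and others, 13 of 13 markers in its main cluster 39) held 44 cells in LPS+RT, 49 in LPS, 38 in PBS+RT and 78 in PBS. Of these, 16 cells in LPS+RT, 17 in LPS, 20 in PBS+RT and 11 in PBS came from cluster 39, with a median of 32848.5 UMIs, and the rest were shallow cells split cell by cell from cluster 30, which mixed type 2 and club cell markers. By cells cluster 30 was therefore the larger source in LPS+RT, LPS and PBS, and cluster 39 in PBS+RT. By UMIs, which set the levels and ratios below, the few deep cells of cluster 39 weighed most in every library. For Ager cluster 39 held 401 UMIs in LPS+RT, 553 in LPS, 349 in PBS+RT and 400 in PBS. The cells from cluster 30 held 79 in LPS+RT, 64 in LPS, 36 in PBS+RT and 102 in PBS.

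The 5 genes that define type 1 cells or their junctions were highest in alveolar type 1-like cells in every library (the plot of each gene by cell class shows the main classes). Levels are CPM, UMIs of the gene scaled to the same total of UMIs in every class and library, and the order of classes is over the 18 classes with at least 10 cells in every library. Ager, the gene of the receptor RAGE and the classical type 1 marker (chr17:34597862-34600936, plus strand, GRCm38, GENCODE M21), stood in alveolar type 1-like cells at 6819.6 CPM in LPS+RT, 5577 in LPS, 5075 in PBS+RT and 6973 in PBS. The mean over the 4 libraries was 6111 ± 931 CPM (SD, n = 4 libraries, treatments included), 7.64 times that of alveolar type 2-like cells, the next class, and the ranges of these classes did not overlap. Ager in alveolar type 2-like cells had 673 CPM in LPS+RT, 948 in LPS, 471 in PBS+RT and 1105 in PBS. Of the 43237 Ager UMIs in all kept cells, 68.1% lay in alveolar type 1-like cells.

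Hopx, a homeodomain protein that does not itself bind DNA and that marks type 1 cells (chr5:77086988-77115121, minus strand), had 4209 CPM in LPS+RT, 2902 in LPS, 4077 in PBS+RT and 6237 in PBS in alveolar type 1-like cells. The PBS library was the highest and the LPS library the lowest. The mean of 4357 ± 1385 CPM (SD, n = 4 libraries) was 6.82 times that of the next class, the platelet-like cells. Hopx was the least confined of the 5 by UMIs: 34.9% of its 64722 UMIs lay in alveolar type 1-like cells and 28.3% in endothelial-like cells, which had 423 CPM in LPS+RT, 238 in LPS, 317 in PBS+RT and 779.9 in PBS. Hopx overlaps the antisense gene Hopxos. The strand of counting is not given in the sources used here, so whether reads of the pair were told apart is not known. The same holds for Cldn18 with Gm16004, Krt7 with Gm671 and Krt8 with Gm36026.

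Akap5, an anchoring protein for protein kinase A (chr12:76324891-76334153, plus strand), had 984 CPM in LPS+RT, 1237 in LPS, 1688 in PBS+RT and 1072 in PBS in alveolar type 1-like cells, with PBS+RT the highest. Its mean of 1245 ± 313 CPM (SD, n = 4 libraries) was 4.39 times that of platelet-like cells, and alveolar type 2-like cells had 28 CPM in LPS+RT, 38.4 in LPS, 152 in PBS+RT and 77 in PBS. Cldn18, the claudin of the tight junctions between alveolar cells (chr9:99689461-99717267, minus strand), was the steadiest over libraries, with 2181 CPM in LPS+RT, 1934 in LPS, 2191 in PBS+RT and 2156 in PBS in alveolar type 1-like cells and 553 CPM in LPS+RT, 446 in LPS, 659 in PBS+RT and 726 in PBS in alveolar type 2-like cells. Its mean in alveolar type 1-like cells, 2115 ± 122 CPM (SD, n = 4 libraries), was 3.55 times that of alveolar type 2-like cells. Krt7, a basic keratin of simple epithelia, had 809.7 CPM in LPS+RT, 782 in LPS, 701 in PBS+RT and 849 in PBS in alveolar type 1-like cells and 50.4 CPM in LPS+RT, 109 in LPS, 40.4 in PBS+RT and 149.7 in PBS in alveolar type 2-like cells, and its mean of 785 ± 62.6 CPM was 8.99 times that of the next class.

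**Figure D1:**
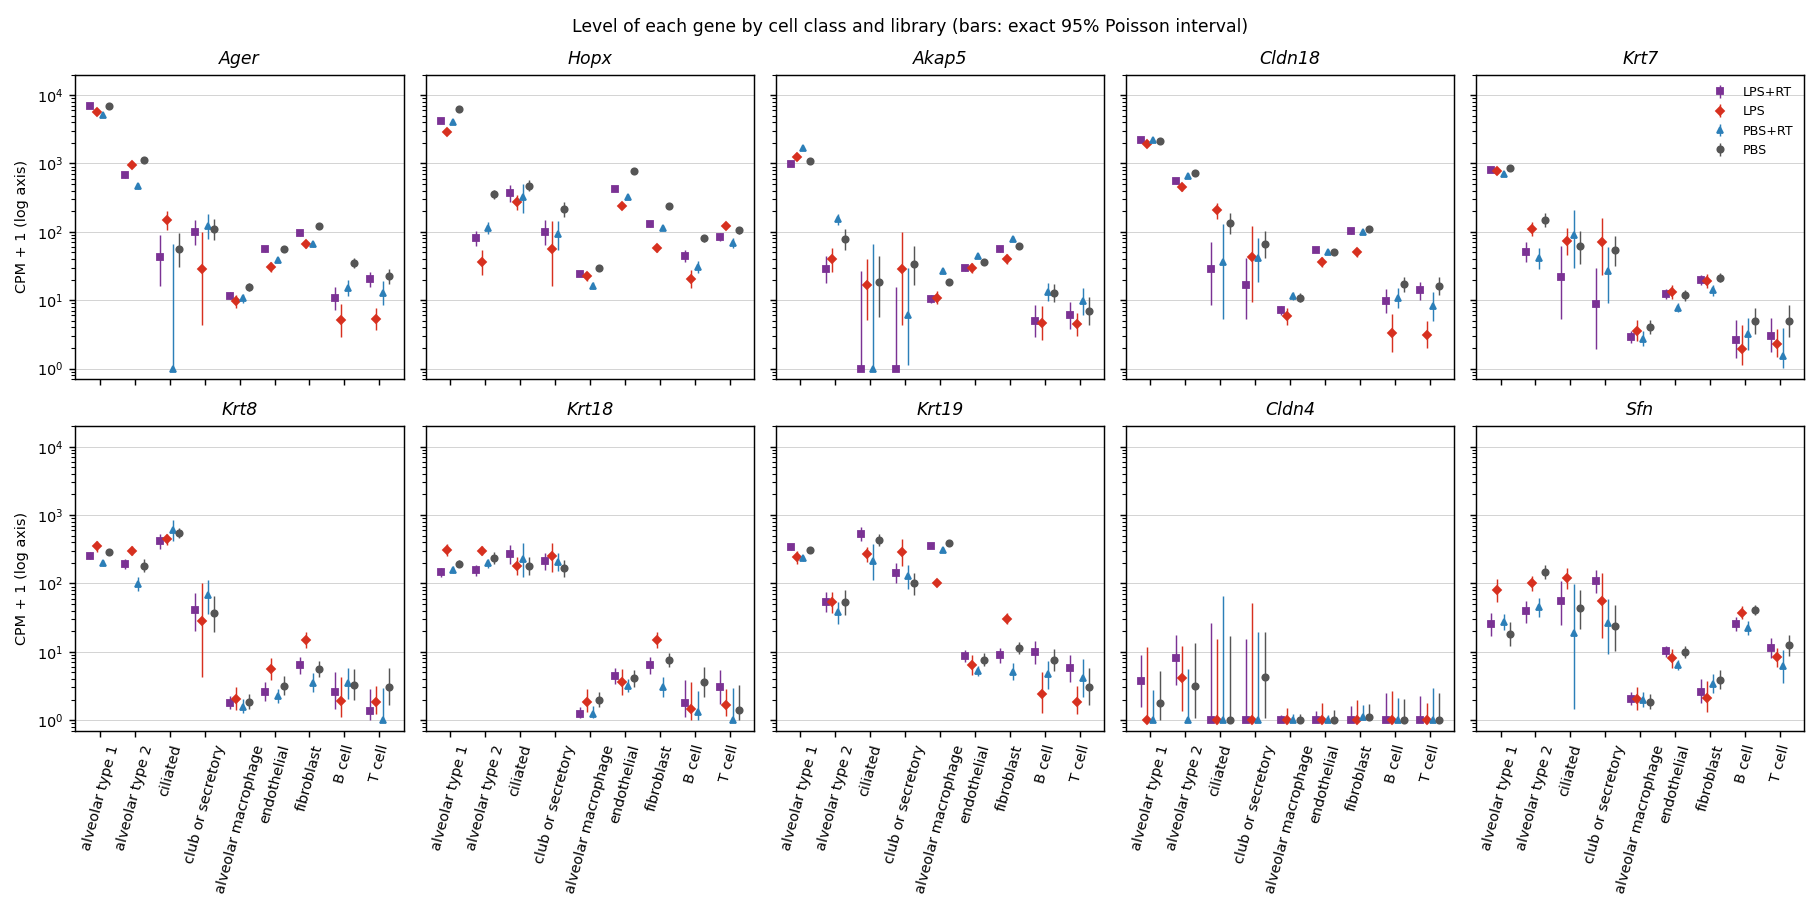
Level of each gene (vertical axis, CPM + 1, log scale) in 9 cell classes (horizontal axis) in each library; symbols are the 4 libraries and bars the exact 95% Poisson interval. Ager, Hopx, Akap5, Cldn18 and Krt7 are highest in alveolar type 1-like cells in every library, Krt8 is highest in ciliated-like cells, Krt18 reaches similar levels in several epithelial classes, Krt19 is also high in alveolar macrophage-like cells, and Cldn4 is near 0 throughout.

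Platelet-like cells, named from Ppbp, Gp9 and Itga2b, came after the alveolar classes for Ager and second for Hopx and Akap5. They had 435 CPM in LPS+RT, 315 in LPS, 330.2 in PBS+RT and 464 in PBS of Ager and 663 CPM in LPS+RT, 365 in LPS, 593 in PBS+RT and 935 in PBS of Hopx. After every cell was thinned to 2000 UMIs, the share of platelet-like cells with an Ager UMI was 41.4% in LPS+RT, 33.3% in LPS, 34.2% in PBS+RT and 49.3% in PBS, against 2.55% in LPS+RT, 0.704% in LPS, 2.61% in PBS+RT and 4.65% in PBS of lymphocyte-like cells, which should not express it. Median depth before thinning was 1624 UMIs in LPS+RT, 1679.5 in LPS, 2331 in PBS+RT and 1756 in PBS in platelet-like cells. It was 5866 UMIs in LPS+RT, 6815 in LPS, 8353.5 in PBS+RT and 6143 in PBS in lymphocyte-like cells. The part of free RNA in these values was not tested.

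Krt8 and Krt18 encode the keratin pair of simple epithelia and lie side by side on chromosome 15, with starts of transcription 23.7 kb apart and opposite directions (GRCm38, GENCODE M21: Krt8 at chr15:101996698-102004482 on the minus strand and Krt18 at chr15:102028180-102032027 on the plus strand). Krt7 ends 566.4 kb from Krt8 on the same chromosome, at chr15:101411043-101430313 on the plus strand, and Krt19 lies on chromosome 11 at chr11:100140810-100148665. Their promoters are shown because the pair is read together below. The printed windows, from RefSeq on GRCm38.p6, run up to the start of transcription and leave out annotated exon bases (chr15:102004483-102004592, minus strand for Krt8 and chr15:102027966-102028179, plus strand for Krt18). The motif search used the full 250 bases before the RefSeq start, with the annotated exon bases that are not printed. In it neither gene held a TATA box (TATAAA), a GC box (GGGCGG), an AP-1 motif (TGANTCA), a TEAD motif (GGAATG) or the NKX2-1 motif CACTTGA on either strand. Over all 32851 RefSeq promoters, windows of 250 bases held the TATA box in 12.4%, the GC box in 32.7%, the AP-1 motif in 6.75%, the TEAD motif in 12.6% and the NKX2-1 motif in 2.68%.
Krt8: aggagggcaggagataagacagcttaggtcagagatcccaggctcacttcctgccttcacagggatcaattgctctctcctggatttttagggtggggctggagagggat
Krt18: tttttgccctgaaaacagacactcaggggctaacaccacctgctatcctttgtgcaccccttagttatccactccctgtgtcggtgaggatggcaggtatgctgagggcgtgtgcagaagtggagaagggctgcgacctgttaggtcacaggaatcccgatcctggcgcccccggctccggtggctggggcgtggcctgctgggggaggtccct

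Krt8 was highest in ciliated-like cells, at 414 CPM in LPS+RT, 443 in LPS, 601 in PBS+RT and 549 in PBS, from 10 cells in LPS+RT, 13 in LPS, 10 in PBS+RT and 28 in PBS. Alveolar type 1-like cells had 255 CPM in LPS+RT, 347 in LPS, 198 in PBS+RT and 284 in PBS of Krt8, with LPS the highest, and alveolar type 2-like cells 193 CPM in LPS+RT, 301 in LPS, 98 in PBS+RT and 181 in PBS. Of 2744 Krt8 UMIs, 43.6% lay in alveolar type 1-like, 18.1% in alveolar type 2-like and 12.3% in ciliated-like cells. For Krt18 the alveolar, ciliated-like and club or secretory-like classes could not be ordered, because their ranges over the 4 libraries overlapped. Means were 201 ± 73.4 CPM in alveolar type 1-like, 222 ± 62.6 CPM in alveolar type 2-like, 215 ± 42.9 CPM in ciliated-like and 207 ± 33.6 CPM in club or secretory-like cells (SD, n = 4 libraries), and every other class was at 15.3 CPM or less.

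The balance of the pair differed between epithelial classes. Krt8 UMIs per Krt18 UMI were 1.77 in LPS+RT, 1.13 in LPS, 1.25 in PBS+RT and 1.47 in PBS in alveolar type 1-like cells. In LPS 1 of these cells held 58 of the 105 Krt18 and 22 of the 119 Krt8 UMIs. The other cells held 47 Krt18 and 97 Krt8 UMIs, so the LPS value of 1.13 leaned on 1 cell. Alveolar type 2-like cells had 1.25 in LPS+RT, 1.0 in LPS, 0.50 in PBS+RT and 0.766 in PBS. Ciliated-like cells had 1.54 in LPS+RT, 2.45 in LPS, 2.62 in PBS+RT and 3.05 in PBS, and club or secretory-like cells 0.189 in LPS+RT, 0.111 in LPS, 0.317 in PBS+RT and 0.220 in PBS. The ratio was thus below the alveolar values in club or secretory-like cells of every library, and the ratio in alveolar type 1-like cells was above that in alveolar type 2-like cells of the same library in all 4, with overlapping intervals in LPS+RT and LPS. As ratios of UMIs they depend on how well each 3′ end is captured, so they compare classes and not the amounts of the genes.

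**Figure D2:**
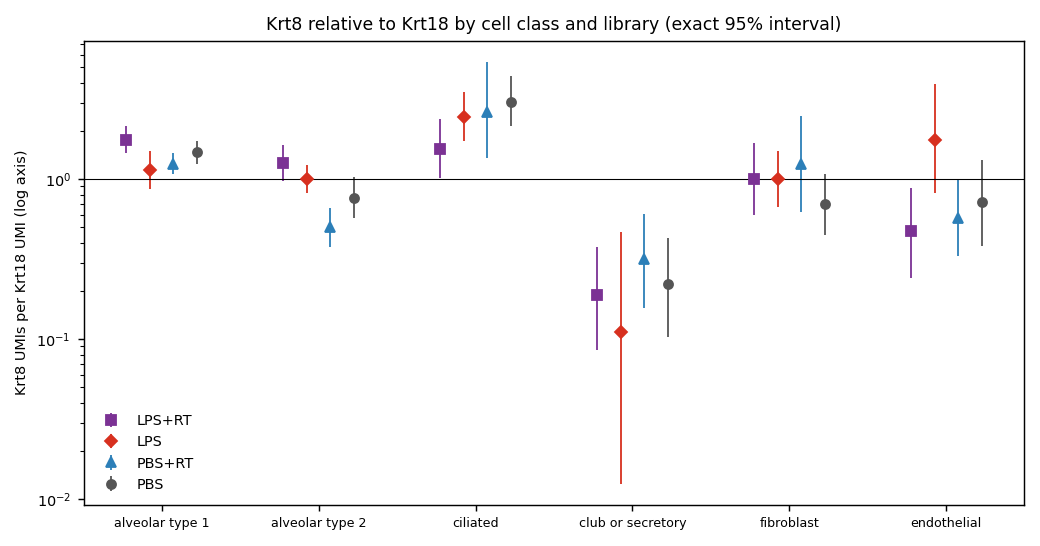
Krt8 UMIs per Krt18 UMI (vertical axis, log scale) by cell class (horizontal axis) and library (symbols), with exact 95% intervals. Club or secretory-like cells lie between 0.111 and 0.317, and ciliated-like cells between 1.54 and 3.05.

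Krt19, an acidic keratin of simple and ductal epithelia, was not confined to epithelium. Of 22606 UMIs, 85.5% lay in alveolar macrophage-like cells and 6.02% in alveolar type 1-like cells. Levels were 347 CPM in LPS+RT, 102 in LPS, 309.6 in PBS+RT and 392 in PBS in alveolar macrophage-like cells. They were 339.98 CPM in LPS+RT, 239 in LPS, 233 in PBS+RT and 309 in PBS in alveolar type 1-like cells and 53.2 CPM in LPS+RT, 52.3 in LPS, 36.7 in PBS+RT and 52.8 in PBS in alveolar type 2-like cells. Ciliated-like cells had the highest mean (361 ± 148 CPM, SD, n = 4 libraries), but its range overlapped that of alveolar macrophage-like (288 ± 128 CPM) and alveolar type 1-like cells (280.2 ± 52.7 CPM), so these 3 classes could not be ordered.

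Sfn, which encodes the 14-3-3 sigma protein of epithelial cells and is induced by p53 after DNA damage, and Cldn4, a claudin of transitional alveolar cells, were the lowest of the set. Sfn lies at chr4:133600556-133602168 and Cldn4 at chr5:134945119-134946934, both on the minus strand. Cldn4 gave 16 UMIs in 11 of 33720 cells (9 UMIs in LPS+RT, 2 in LPS, 1 in PBS+RT and 4 in PBS). Alveolar type 2-like cells had 5 UMIs in 3 cells in LPS+RT, 2 UMIs in 1 cell in LPS, 0 in PBS+RT and 1 UMI in PBS. Cldn4 was at most at 2 UMIs in the alveolar type 2-like cells of the libraries other than LPS+RT, too few to compare them. Sfn had 24.7 CPM in LPS+RT, 78.8 in LPS, 26.6 in PBS+RT and 17.5 in PBS in alveolar type 1-like cells, 37.8 CPM in LPS+RT, 99.9 in LPS, 44.1 in PBS+RT and 147 in PBS in alveolar type 2-like cells and 24.6 CPM in LPS+RT, 36.3 in LPS, 21.4 in PBS+RT and 40.3 in PBS in B cell-like cells. The ranges of alveolar type 2-like, ciliated-like, club or secretory-like, alveolar type 1-like and B cell-like cells overlapped, so Sfn marked no alveolar class here.

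Their promoters are printed because Cldn4 alone of the 9 genes with a RefSeq promoter held the AP-1 motif, with 2 copies (TGACTCA, 240 and 158 bases before the start). Cldn4 also held 1 GC box 44 bases before the start, and Akap5 held 3 GC boxes (171, 102 and 84 bases before the start). Krt7 held 4 GC boxes, all past the first annotated exon base in its window, and is not printed. Sfn held none of the 5 motifs. Capitals mark the motifs, a GC box reading CCGCCC where it lies on the other strand. Positions are chr12:76324641-76324890, plus strand for Akap5, chr5:134946935-134947184, minus strand for Cldn4 and chr4:133602169-133602418, minus strand for Sfn (RefSeq, GRCm38.p6). A match describes the letters and not a site in use.
Akap5: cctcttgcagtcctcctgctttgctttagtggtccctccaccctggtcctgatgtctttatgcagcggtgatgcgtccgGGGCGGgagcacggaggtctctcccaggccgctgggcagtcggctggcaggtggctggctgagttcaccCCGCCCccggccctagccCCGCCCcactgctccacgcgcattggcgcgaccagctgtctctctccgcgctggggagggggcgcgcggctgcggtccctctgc
Cldn4: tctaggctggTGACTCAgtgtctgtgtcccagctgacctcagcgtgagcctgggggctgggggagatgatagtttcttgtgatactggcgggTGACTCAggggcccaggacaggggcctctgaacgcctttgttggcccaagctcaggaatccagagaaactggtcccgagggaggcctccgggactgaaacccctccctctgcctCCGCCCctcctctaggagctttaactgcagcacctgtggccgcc
Sfn: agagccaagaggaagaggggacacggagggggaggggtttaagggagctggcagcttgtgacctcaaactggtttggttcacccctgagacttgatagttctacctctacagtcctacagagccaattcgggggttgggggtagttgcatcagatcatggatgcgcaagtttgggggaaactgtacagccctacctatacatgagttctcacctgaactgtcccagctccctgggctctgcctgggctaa

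Shares of cells with a UMI gave the same separation as levels. At 2000 UMIs a cell (132 cells deep enough and 212 left out in LPS+RT, 51 and 62 in LPS, 198 and 139 in PBS+RT, 170 and 219 in PBS), an Ager UMI was found in 96.2% in LPS+RT, 84.3% in LPS, 90.4% in PBS+RT and 94.1% in PBS of alveolar type 1-like cells. Without thinning the shares were 92.2% in LPS+RT, 83.2% in LPS, 94.4% in PBS+RT and 88.2% in PBS. Krt8 was found after thinning in 30.3% in LPS+RT, 41.2% in LPS, 23.7% in PBS+RT and 28.2% in PBS of alveolar type 1-like cells, against 0.239% in LPS+RT, 0.0782% in LPS, 0.261% in PBS+RT and 0.372% in PBS of lymphocyte-like cells. In all 4 libraries the share was above that of lymphocyte-like cells for 8 of the 10 genes, the exceptions being Cldn4 and Sfn. For Sfn it was 1.52% in LPS+RT, 9.80% in LPS, 4.04% in PBS+RT and 2.35% in PBS of alveolar type 1-like cells, against 3.11% in LPS+RT, 3.21% in LPS, 3.26% in PBS+RT and 4.37% in PBS of lymphocyte-like cells. B cell-like cells carried most of that share, with 5.20% in LPS+RT, 6.73% in LPS, 4.92% in PBS+RT and 7.10% in PBS, against 2.16% in LPS+RT, 1.78% in LPS, 1.08% in PBS+RT and 1.78% in PBS of T cell-like cells, so no background is set for Sfn here. Median depth in alveolar type 1-like cells was 1648.5 UMIs in LPS+RT, 1707 in LPS, 2402 in PBS+RT and 1725 in PBS. The thinned share of alveolar type 2-like cells for Hopx, 14.3% in LPS+RT, 12.9% in LPS, 6.45% in PBS+RT and 24.2% in PBS, was set beside that of lymphocyte-like cells, 14.6% in LPS+RT, 12.9% in LPS, 7.69% in PBS+RT and 17% in PBS. Those cells are no measure of free RNA for Hopx, since NK cell-like cells had 127 CPM in LPS+RT, 132 in LPS, 102 in PBS+RT and 162 in PBS of it and T cell-like cells 83.5 CPM in LPS+RT, 119 in LPS, 67.5 in PBS+RT and 104 in PBS, above the B cell-like cells of the same library, so none is set for Hopx either.

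The 2 alveolar type 1-like clusters differed in the level of the genes. Ager had 11668 CPM in LPS+RT, 9385 in LPS, 6128 in PBS+RT and 10019 in PBS in the deep cluster 36 and 4318 CPM in LPS+RT, 4279 in LPS, 3569 in PBS+RT and 4839 in PBS in the shallow cluster 10. Hopx, Krt7 and Krt19 were likewise higher in cluster 36 in every library, whereas Akap5 was higher in cluster 10 in every library, at 1036 CPM in LPS+RT, 1318 in LPS, 2132 in PBS+RT and 1158 in PBS against 884 CPM in LPS+RT, 998 in LPS, 1378 in PBS+RT and 951 in PBS in cluster 36. In LPS cluster 36 was 4 cells, and 1 of them held 25 of its 29 Krt19 UMIs. The higher Krt19 of cluster 36 in LPS thus leaned on 1 cell. Krt18 was higher in cluster 36 in LPS+RT, PBS+RT and PBS and lower there in LPS, where 1 cell held 58 of the 82 Krt18 UMIs of cluster 10. Without the top cell of each, LPS had 209 CPM in cluster 36 and 99.8 CPM in cluster 10, the same order as in the other libraries. Sftpc, a surfactant gene read here as RNA of other cells, was at 32.2 CPM in LPS+RT, 22.9 in LPS, 21.4 in PBS+RT and 258 in PBS in cluster 36 and 429 CPM in LPS+RT, 356 in LPS, 357 in PBS+RT and 625 in PBS in cluster 10, and its part in these differences was not tested.

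LPS was set against PBS to ask how alveolar genes stood 48 h after LPS. In alveolar type 1-like cells Hopx was lower in the LPS library and Sfn and Krt18 were higher, while Ager, Akap5, Cldn18, Krt7, Krt8 and Krt19 were less than 1.5-fold apart. Hopx had 2902 CPM in LPS against 6237 CPM in PBS and was 2.15-fold lower in LPS (95% interval 2.01 to 2.30). Sfn had 78.8 CPM in LPS against 17.5 CPM in PBS, from 27 UMIs in LPS and 23 UMIs in PBS, and was 4.51-fold higher in LPS (95% interval 2.49 to 8.24). Krt18, the acidic chain that pairs with Krt8 in filaments, had 306 CPM in LPS against 194 CPM in PBS and was 1.58-fold higher in LPS (95% interval 1.25 to 1.99). Krt8, its partner, had 347 CPM in LPS against 284 CPM in PBS, a ratio of 1.22 (95% interval 0.987 to 1.51). A gene is counted as apart when the ratio was at least 1.5-fold either way and its 95% interval excluded 1: that held for 3 of the 10 genes, against 11.7% of the 11526 genes that reached 5 CPM in at least 1 of the 2 libraries.

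The higher Krt18 in LPS rested on 1 cell. This cell of cluster 10, with 15189 UMIs, held 58 of the 105 Krt18 UMIs of the 113 alveolar type 1-like cells of the LPS library, together with 22 Krt8, 8 Sfn, 9 Krt7 and 5 Krt19 UMIs. It had 5 Ager, 3 Hopx, 8 Cldn18 and no Akap5 or Cldn4 UMIs. Set against the other alveolar type 1-like cells of its library, its Krt18 level was 26.6-fold higher (95% interval 17.8 to 40), its Krt8 level 4.89-fold and its Sfn level 9.08-fold higher, and Ager was at a ratio of 0.0566 and Hopx at 0.0652. Among 20 other transitional state genes 3 were higher in it and 1 lower by their 95% intervals, against 5.44% higher and 2.42% lower of the 10688 genes at 5 CPM or more in the cell or in the others, with Tnfrsf12a (the receptor of the cytokine TWEAK) 32.4-fold and Plaur (the urokinase receptor) 7.19-fold higher, and among 20 other alveolar type 1 genes 1 was higher and 13 lower. The cell was singled out after its values were seen and is 1 cell. It was chosen as the cell of this class and library with most UMIs of Krt8, Krt18, Krt19, Cldn4 and Sfn together. Its higher Krt18, Krt8 and Sfn thus follow from the choice, which the intervals do not take into account. Without the cell with most Krt18 UMIs in each library Krt18 stood at 143 CPM in the LPS library, against 173 CPM in PBS. Sfn, treated the same way, stood at 58 CPM in the LPS library against 10.8 CPM in PBS.

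**Figure D3:**
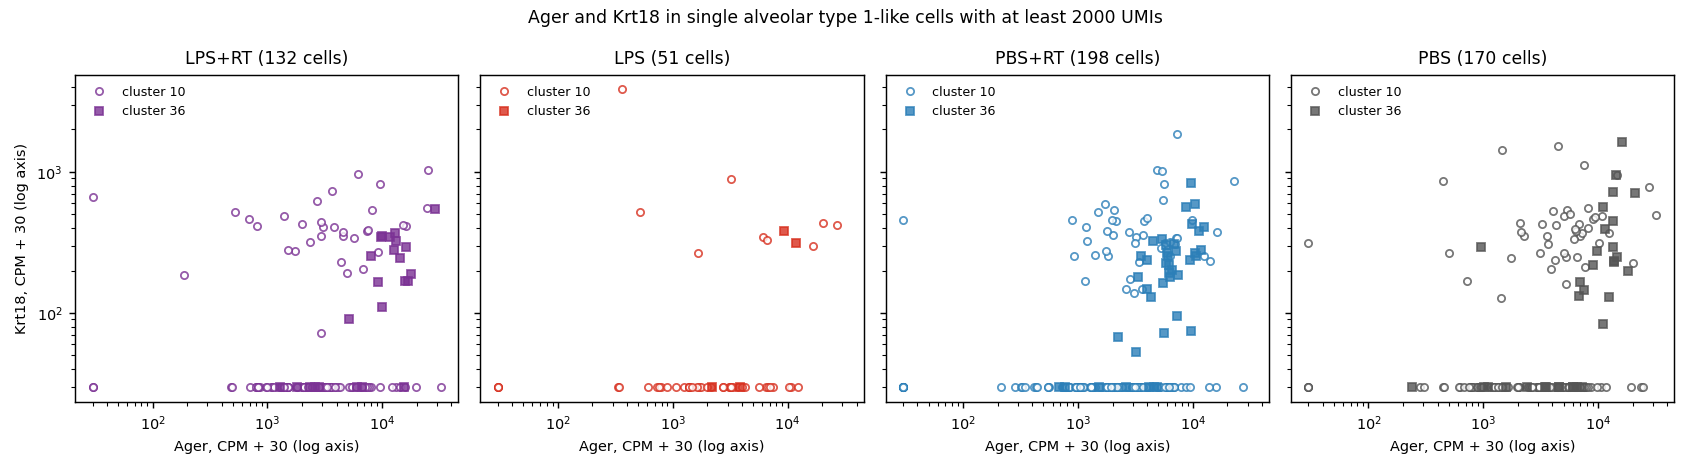
Ager (horizontal axis) and Krt18 (vertical axis) in single alveolar type 1-like cells with at least 2000 UMIs, both as CPM + 30 on log scales, 1 panel a library; open circles are cells of cluster 10 and filled squares cells of cluster 36. The LPS panel has 1 cell with high Krt18 and low Ager at the upper left, and cells with no Krt18 UMI lie along the bottom.

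Krt8 stood higher in LPS than in PBS in cluster 10 and lower in cluster 36, but single cells weighed on the LPS side of both. In cluster 10 (109 cells in LPS and 354 in PBS) Krt8 had 379 CPM in LPS against 191 CPM in PBS, a ratio of 1.99, and Sfn had 93.9 CPM in LPS against 7.74 CPM in PBS. The cell described above held 22 of the 97 Krt8 and 8 of the 24 Sfn UMIs of cluster 10 in LPS. In cluster 36, with 4 cells in LPS and 35 in PBS, Krt8 had 252 CPM in LPS against 416 CPM in PBS, a ratio of 0.606. Its 22 Krt8 UMIs in LPS lay in 2 of the 4 cells, 14 of them in 1 cell. Hopx was lower in LPS in both clusters, at a ratio of 0.449 in cluster 10 and 0.614 in cluster 36. Cells with both a Krt8 and an Sfn UMI numbered 10 of 344 in LPS+RT, 11 of 113 in LPS, 21 of 337 in PBS+RT and 8 of 389 in PBS, counts that grow with depth. Neutrophil markers, of which 8 of 8 had a UMI in alveolar type 1-like cells, summed to 203 CPM in LPS+RT, 1426 in LPS, 205 in PBS+RT and 78.9 in PBS, and their part in these differences was not tested.

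The list of 20 other alveolar type 1 genes holds all 10 markers that named the alveolar type 1-like class. Its counts in that class are therefore, throughout, not independent of the naming. Of other genes of the same biology in alveolar type 1-like cells, none of 20 other alveolar type 1 genes was apart upward and 3 were lower in LPS (median log2 ratio -0.05, against -0.03 over all genes). They were Pxdc1 (248 CPM in LPS against 420.4 in PBS), Tspan8 (359 CPM in LPS against 583 in PBS) and Vegfa, the vascular growth factor that type 1 cells release (1158 CPM in LPS against 1742 in PBS). Of 20 other transitional state genes 2 were higher and 3 lower (median log2 ratio 0.28). Plaur was higher at 105 CPM in LPS against 53.1 in PBS and Tnfrsf12a at 87.5 CPM in LPS against 53.1 in PBS, and lower were Ccn1, a matrix protein and target of the YAP pathway (259.6 CPM in LPS against 553 in PBS), and Lgals3, the galectin of transitional cells (295 CPM in LPS against 464 in PBS). None of 12 other keratins was apart. Of 22 other claudins and junction genes 2 were lower, among them the desmosome gene Pkp2 (52.5 CPM in LPS against 108 in PBS).

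In alveolar type 2-like cells Krt8 was higher in LPS, and Hopx, Akap5 and Cldn18 were lower (4 of 10 genes apart, against 19.5% of 11067 genes). Krt8 had 301 CPM in LPS against 181 CPM in PBS, from 196 UMIs in LPS and 82 UMIs in PBS, and was 1.67-fold higher in LPS (95% interval 1.28 to 2.19). Hopx had 35.4 CPM in LPS against 352 CPM in PBS and was 9.96-fold lower in LPS (95% interval 6.41 to 16.2). Cldn18 had 446 CPM in LPS against 726 CPM in PBS and was 1.63-fold lower in LPS (95% interval 1.39 to 1.91), and Akap5 had 38.4 CPM in LPS against 77 CPM in PBS. The lower Akap5 rested on few cells: 1 cell held 14 of its 35 UMIs in PBS, a UMI was found in 15 of 49 cells in LPS against 6 of 78 in PBS, and the call was lost without the top cells and under 4 more of the 14 alternatives, with the sign turned in the cells split from cluster 30 (log2 ratio 0.72) and with cells weighted equally (2.55). In the PBS library 1 cell held 91 of the 160 Hopx UMIs, and without it Hopx stood there at 164 CPM, still above LPS. The lower Hopx was not particular to alveolar cells. Fibroblast-like cells had 57.2 CPM in LPS against 238 in PBS, and B cell-like cells 19.7 CPM in LPS against 79.2 in PBS. Of the ordered classes only T cell-like cells went the other way, at 119 CPM in LPS against 104 in PBS. The part of free RNA in this was not tested. Of the other alveolar type 1 genes 14 of 20 were lower in LPS and none higher (median log2 ratio -1.38, against -0.10 over all genes), among them Cav1 (36.9 CPM in LPS against 266 in PBS) and Emp2 (234 CPM in LPS against 550.3 in PBS). Of the transitional state genes 4 of 20 were higher, such as Clu (237 CPM in LPS against 94.7 in PBS), and 8 lower, such as Tm4sf1 (16.9 CPM in LPS against 198 in PBS) and Ccn2 (1.54 CPM in LPS against 158 in PBS). None of 12 other keratins was apart, and of 22 junction genes 2 were higher and 1 lower. Markers of endothelial cells, all 10 of 10 with a UMI, summed in alveolar type 2-like cells to 659.97 CPM in LPS+RT, 326 in LPS, 367 in PBS+RT and 1805 in PBS, so that LPS was the lowest, and Cav1 and Tm4sf1 are also expressed by endothelial cells; their part in these differences was not tested.

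**Figure D4:**
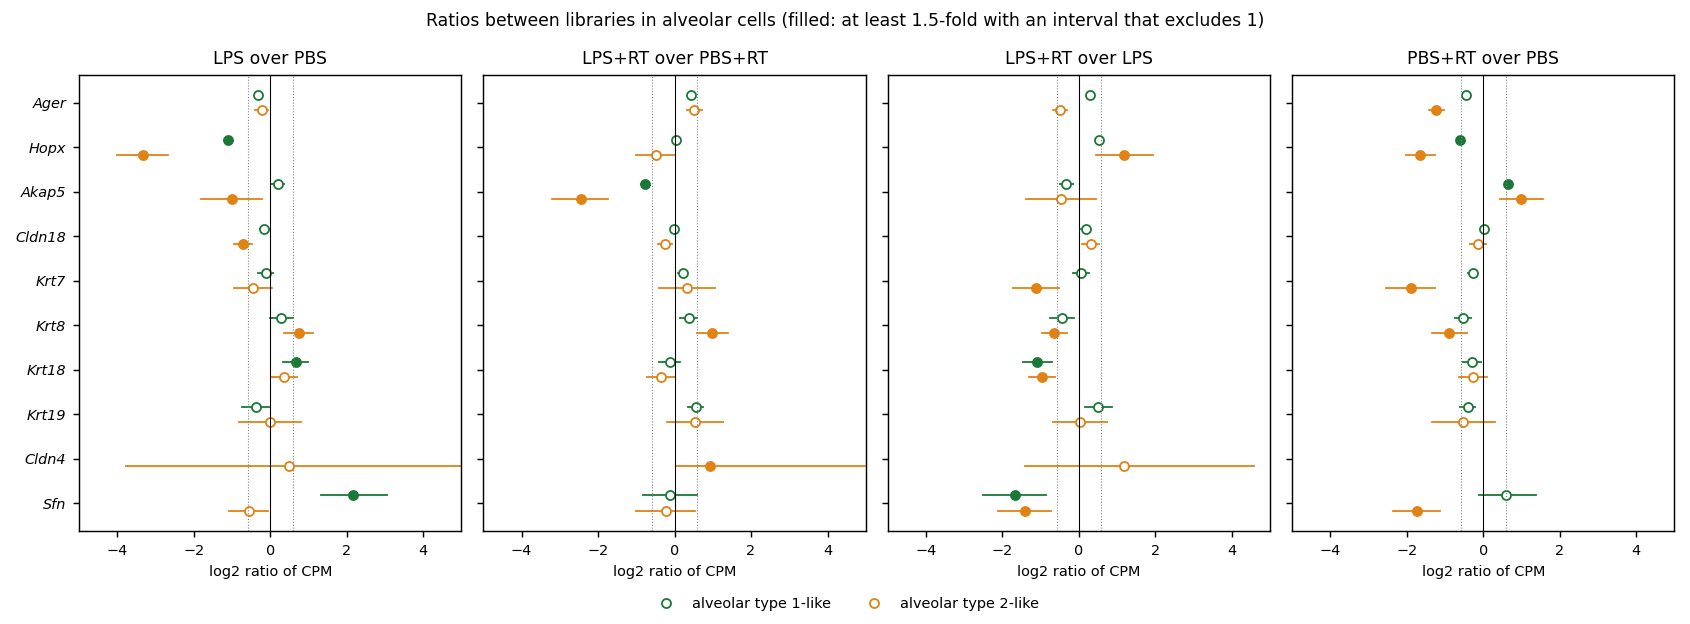
Log2 ratio of CPM between libraries (horizontal axis) for each gene (vertical axis) in alveolar type 1-like (green) and alveolar type 2-like cells (orange), 1 panel a comparison, with 95% intervals; filled symbols are at least 1.5-fold apart with an interval that excludes 1, and dotted lines mark 1.5-fold. Hopx is lower in LPS than in PBS in both classes, and Akap5 is lower in LPS+RT than in PBS+RT and higher in PBS+RT than in PBS in both.

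The same question was put to the irradiated libraries, LPS+RT against PBS+RT. In alveolar type 1-like cells Akap5 was the one gene of the 10 apart, against 21.6% of 11438 genes: it had 984 CPM in LPS+RT against 1688 CPM in PBS+RT and was 1.71-fold lower in LPS+RT (95% interval 1.60 to 1.84). Hopx did not differ beyond counting error, with 4209 CPM in LPS+RT against 4077 CPM in PBS+RT and a ratio of 1.03 (95% interval 0.996 to 1.07). Krt19 had 339.98 CPM in LPS+RT against 233 CPM in PBS+RT, a ratio of 1.46 (95% interval 1.27 to 1.67), and Ager had 6819.6 CPM in LPS+RT against 5075 CPM in PBS+RT. Of the other alveolar type 1 genes 1 of 20 was lower, Sema3a (662 CPM in LPS+RT against 1098 in PBS+RT), and none higher (median log2 ratio -0.24, against -0.06 over all genes). Of the transitional state genes 4 of 20 were higher, such as the cyclin Ccnd1 (129.8 CPM in LPS+RT against 72.3 in PBS+RT), and 2 lower, such as Ccn1 (299 CPM in LPS+RT against 576 in PBS+RT). Of the 12 keratins Krt79 alone was higher (67.6 CPM in LPS+RT against 10.7 in PBS+RT); Krt79 is also a marker of alveolar macrophages in mouse lung, whose 9 markers summed to 1116 CPM in LPS+RT, 228 in LPS, 362 in PBS+RT and 359.7 in PBS in alveolar type 1-like cells, and their part in it was not tested. Of 22 junction genes 1 was higher and 3 were lower.

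Of the 10 genes, 3 were apart in alveolar type 2-like cells, against 23.5% of 11368 genes. Krt8 had 193 CPM in LPS+RT against 98 CPM in PBS+RT and was 1.97-fold higher in LPS+RT (95% interval 1.49 to 2.63). Cldn4 had 5 UMIs in 3 cells in LPS+RT and 0 in PBS+RT, 1.91-fold higher with the 0 set to a floor of 3 UMIs. That value depends on the floor and is not a lower limit. Of those Cldn4 UMIs 3 were in 1 cell, without which too few were left to compare, and the call was also lost when each cell was named by its own score. Akap5 had 28 CPM in LPS+RT against 152 CPM in PBS+RT and was 5.42-fold lower in LPS+RT (95% interval 3.36 to 9.18). Krt8 was thus higher with LPS in both pairs of libraries in this class, but for LPS over PBS it was no longer apart when each cell was named by its own score (log2 ratio 0.38) or in the cells split from cluster 30. Of the transitional state genes 11 of 20 were higher and 2 lower (median log2 ratio 0.80, against -0.08 over all genes). They included Tm4sf1 (65.9 CPM in LPS+RT against 18.4 in PBS+RT), Tnfrsf12a (74.3 CPM in LPS+RT against 22 in PBS+RT) and Lgals3 (258 CPM in LPS+RT against 77.2 in PBS+RT), all higher in LPS+RT. Of the other alveolar type 1 genes 1 of 20 was higher and 6 were lower, such as the basement membrane collagen gene Col4a3 (19.6 CPM in LPS+RT against 118 in PBS+RT). No other keratin was apart, and of 22 junction genes 2 were higher and 4 lower, such as the desmosome gene Dsp (19.6 CPM in LPS+RT against 69.8 in PBS+RT). All 10 of 10 fibroblast markers had a UMI in alveolar type 2-like cells and summed to 2954 CPM in LPS+RT, 483 in LPS, 1272 in PBS+RT and 1750.04 in PBS, and all 6 of 6 erythroid markers to 36.4 CPM in LPS+RT, 30.7 in LPS, 16951 in PBS+RT and 614 in PBS. Their part in these differences was not tested.

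LPS+RT was set against LPS to ask what 1 Gy added after LPS; LPS also stands in the comparison with PBS, so these comparisons share a library. In alveolar type 1-like cells Sfn and Krt18 were lower in LPS+RT (2 of 10 genes apart, against 10.1% of 11558 genes). Sfn had 24.7 CPM in LPS+RT against 78.8 CPM in LPS, 27 UMIs in each, and was 3.19-fold lower in LPS+RT (95% interval 1.80 to 5.65). Krt18 had 144 CPM in LPS+RT against 306 CPM in LPS and was 2.12-fold lower in LPS+RT (95% interval 1.64 to 2.73). Without the cell with most Krt18 UMIs in each library, Krt18 stood at 139 CPM in LPS+RT and 143 CPM in LPS. Hopx had 4209 CPM in LPS+RT against 2902 CPM in LPS, a ratio of 1.45 (95% interval 1.35 to 1.55), just under 1.5-fold. Of the other alveolar type 1 genes 1 of 20 was higher and none lower. Of the transitional state genes 3 of 20 were higher and 4 lower (median log2 ratio -0.09, against 0.00 over all genes). Higher was Cdkn1a, the cell cycle inhibitor p21 that p53 induces (236 CPM in LPS+RT against 90.4 in LPS), and lower was Tnfrsf12a (36.6 CPM in LPS+RT against 87.5 in LPS). Of 12 keratins Krt79 was higher (67.6 CPM in LPS+RT and no UMI in LPS), and of 22 junction genes 3 were higher and 1 lower.

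Hopx was higher in LPS+RT in alveolar type 2-like cells, and Sfn, Krt7, Krt8 and Krt18 were lower (5 of 10 genes apart, against 18.1% of 11199 genes). Hopx had 79.9 CPM in LPS+RT against 35.4 CPM in LPS and was 2.26-fold higher in LPS+RT (95% interval 1.37 to 3.84), a call lost with cells weighted equally and in the cells split from cluster 30. Both chains of the simple-epithelium pair were lower in LPS+RT. Krt8 had 193 CPM in LPS+RT against 301 CPM in LPS and was 1.56-fold lower in LPS+RT (95% interval 1.25 to 1.95). Krt18 had 154 CPM in LPS+RT against 301 CPM in LPS and was 1.95-fold lower in LPS+RT (95% interval 1.54 to 2.49). Krt7 had 50.4 CPM in LPS+RT against 109 CPM in LPS, and Sfn had 37.8 CPM in LPS+RT against 99.9 CPM in LPS. The 2 keratins rest on the deep cluster 39: in the cells split from cluster 30 Krt8 had 217 CPM in LPS+RT against 208 CPM in LPS, and Krt18 had 207 CPM in LPS+RT against 164 CPM in LPS. Of the transitional state genes 10 of 20 were higher and 2 lower (median log2 ratio 0.63, against 0.05 over all genes), such as Fn1 (fibronectin, 132 CPM in LPS+RT against 20 in LPS) and Ccn2 (121 CPM in LPS+RT against 1.54 in LPS), which fibroblasts also express (fibroblast markers summed to 2954 CPM in LPS+RT against 483 in LPS). Of the other alveolar type 1 genes 2 of 20 were higher and 1 lower, no other keratin was apart, and 1 of 22 junction genes was higher and 4 lower.

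PBS+RT was set against PBS to ask what 1 Gy did in lungs without LPS; the PBS library is shared with the comparison of LPS. In alveolar type 1-like cells Hopx was lower and Akap5 higher in PBS+RT (2 of 10 genes apart, against 19.7% of 11312 genes). Hopx had 4077 CPM in PBS+RT against 6237 CPM in PBS and was 1.53-fold lower in PBS+RT (95% interval 1.48 to 1.58). Akap5 had 1688 CPM in PBS+RT against 1072 CPM in PBS and was 1.57-fold higher in PBS+RT (95% interval 1.48 to 1.68). The lower Hopx was under 1.5-fold in cluster 10 alone (log2 ratio -0.52) and with cells weighted equally (-0.48), and the higher Akap5 was under 1.5-fold in cluster 36 alone and with at least 1000 UMIs a cell. Sfn, a p53 target in many cell types, had 26.6 CPM in PBS+RT against 17.5 CPM in PBS, a ratio of 1.52 (95% interval 0.923 to 2.59) whose interval holds 1. Cdkn1a was higher in PBS+RT, at 276 CPM in PBS+RT against 126 in PBS, as was Fn1 at 110.05 CPM in PBS+RT against 50.1 in PBS, and they were the 2 higher of 20 transitional state genes, of which 4 were lower, such as Ccnd1 (72.3 CPM in PBS+RT against 158 in PBS). The median log2 ratio of that list was -0.12, against 0.04 over all genes. Sema3a (1098 CPM in PBS+RT against 614 in PBS) was the one other alveolar type 1 gene of 20 that was higher, none was lower, and no other keratin or junction gene was apart.

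Of the 10 genes, 6 were apart in alveolar type 2-like cells, against 23.1% of 11229 genes, with Akap5 higher and Ager, Hopx, Krt7, Krt8 and Sfn lower in PBS+RT. Akap5 had 152 CPM in PBS+RT against 77 CPM in PBS and was 1.97-fold higher in PBS+RT (95% interval 1.34 to 2.96). Krt8 had 98 CPM in PBS+RT against 181 CPM in PBS and was 1.84-fold lower in PBS+RT (95% interval 1.34 to 2.54). Akap5 thus went the other way from Krt8. Ager had 471 CPM in PBS+RT against 1105 CPM in PBS, Hopx had 113 CPM in PBS+RT against 352 CPM in PBS and Krt7 had 40.4 CPM in PBS+RT against 149.7 CPM in PBS. Sfn had 44.1 CPM in PBS+RT against 147 CPM in PBS. Single cells of the PBS library weighed on these: 1 cell held 47 of 67 Sfn UMIs, without which Sfn stood at 47.2 CPM in PBS, and 1 cell held 144 of 502 Ager UMIs, without which Ager stood at 852 CPM in PBS. For Hopx 1 cell held 91 of 160 UMIs in PBS, and without the top cell of each library the levels were 97.2 CPM in PBS+RT against 164 CPM in PBS (log2 ratio -0.76). Treated the same way, Krt8 and Sfn were no longer apart. The top PBS cells for Ager, Hopx and Krt7 had the same total of 33867 UMIs. For Sfn and Krt8 the top PBS cell was the same, with 30886 UMIs. The lower genes are therefore not separate observations. In the cells split from cluster 30 alone, Akap5 was the one gene apart. Of the other alveolar type 1 genes 1 of 20 was higher and 9 lower (median log2 ratio -0.88, against 0.02 over all genes). Of the transitional state genes none of 20 was higher and 8 were lower, such as Tm4sf1 (18.4 CPM in PBS+RT against 198 in PBS). Of 12 keratins Krt80 was lower (11 CPM in PBS+RT against 33 in PBS), and of 22 junction genes 3 were higher, such as the cadherin Cdh1 (333 CPM in PBS+RT against 167 in PBS), and 3 lower, such as the endothelial claudin Cldn5 (42.9 CPM in PBS+RT against 341 in PBS). In the same cells endothelial markers summed to 367 CPM in PBS+RT against 1805 in PBS and erythroid markers to 16951 CPM in PBS+RT against 614 in PBS, and their part in these differences was not tested.

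The balance of Akap5 to Ager was highest in PBS+RT in 10 of the 14 classes with a value in every library, the exceptions being B cell-like, T cell-like and dendritic-like cells (highest in LPS) and NK cell-like cells (highest in LPS+RT). In alveolar type 1-like cells Akap5 UMIs per Ager UMI were 0.144 in LPS+RT, 0.222 in LPS, 0.333 in PBS+RT and 0.154 in PBS, in alveolar type 2-like cells 0.0417 in LPS+RT, 0.0405 in LPS, 0.322 in PBS+RT and 0.0697 in PBS, in alveolar macrophage-like cells 0.874 in LPS+RT, 1.15 in LPS, 2.64 in PBS+RT and 1.19 in PBS and in endothelial-like cells 0.523 in LPS+RT, 0.985 in LPS, 1.14 in PBS+RT and 0.632 in PBS. PBS+RT was the highest library in these 4 classes. Classes of 1 library share its preparation and free RNA, so the 14 classes are not replicates. In alveolar macrophage-like cells Ager had 10.7 CPM in LPS+RT, 8.59 in LPS, 9.63 in PBS+RT and 14.7 in PBS. T cell-like cells had 19.3 CPM of it in LPS+RT, 4.28 in LPS, 11.9 in PBS+RT and 21.3 in PBS. The median depth per cell was also highest in PBS+RT, and the part of depth and of free RNA in this balance was not tested. Hopx UMIs per Ager UMI in alveolar type 1-like cells were 0.617 in LPS+RT, 0.520 in LPS, 0.803 in PBS+RT and 0.895 in PBS, so that by this measure PBS+RT lay near PBS and the LPS libraries lay below both.

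Krt19 and Hopx had the largest numbers of UMIs in a named class outside epithelium, and there too they differed between libraries. Alveolar macrophage-like cells held 19328 Krt19 UMIs and endothelial-like cells 18310 Hopx UMIs. In alveolar macrophage-like cells Krt19 had 102 CPM in LPS against 392 CPM in PBS, 3.84-fold lower in LPS (95% interval 3.55 to 4.15), where 31.1% of genes were apart. LPS+RT stood 3.40-fold higher than LPS (95% interval 3.15 to 3.68), where 18.6% of genes were apart. Clusters of this class were filled by different libraries: cluster 7 held 223 cells in LPS+RT, 9 in LPS, 661 in PBS+RT and 566 in PBS, and cluster 18 held 491 in LPS+RT, 125 in LPS, 12 in PBS+RT and 42 in PBS. Within clusters LPS was still the lowest library, with 483 CPM in LPS+RT, 164 in LPS, 313 in PBS+RT and 399.8 in PBS in cluster 7 and 332 CPM in LPS+RT, 96.8 in LPS, 171 in PBS+RT and 358 in PBS in cluster 18. After thinning to 2000 UMIs a Krt19 UMI was found in 44.2% in LPS+RT, 18.8% in LPS, 40.7% in PBS+RT and 50.6% in PBS of alveolar macrophage-like cells, against 1.43% in LPS+RT, 0.0782% in LPS, 0.782% in PBS+RT and 0.836% in PBS of lymphocyte-like cells. Median depths of alveolar macrophage-like cells were 25733.5 UMIs in LPS+RT, 37136.5 in LPS, 23621 in PBS+RT and 23620 in PBS.

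In endothelial-like cells Hopx had 238 CPM in LPS against 779.9 CPM in PBS, 3.27-fold lower in LPS (95% interval 3.07 to 3.49), where 19.1% of genes were apart. Against PBS, PBS+RT had 317 CPM and was 2.46-fold lower (25.1% of genes apart), and LPS+RT had 423 CPM, 1.77-fold higher than LPS (13.6% of genes apart). Levels differed between clusters, with more Hopx in clusters 8 and 19 than in the large cluster 1 in every library. Cluster 8, which has the capillary marker Ednrb among its top genes, had 869 CPM in LPS+RT, 458 in LPS, 846 in PBS+RT and 1422 in PBS, and cluster 19 had 972 CPM in LPS+RT, 525 in LPS, 973 in PBS+RT and 1488 in PBS. Cluster 1 had 148 CPM in LPS+RT, 139 in LPS, 121 in PBS+RT and 186 in PBS. Cluster 8 held 371 and cluster 19 held 91 of the 1968 endothelial-like cells in PBS+RT, against 435 and 234 of 1480 in PBS. The ratio of PBS+RT over PBS was 0.595 within cluster 8 and 0.654 within cluster 19, against 0.407 in the class.

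**Figure D5:**
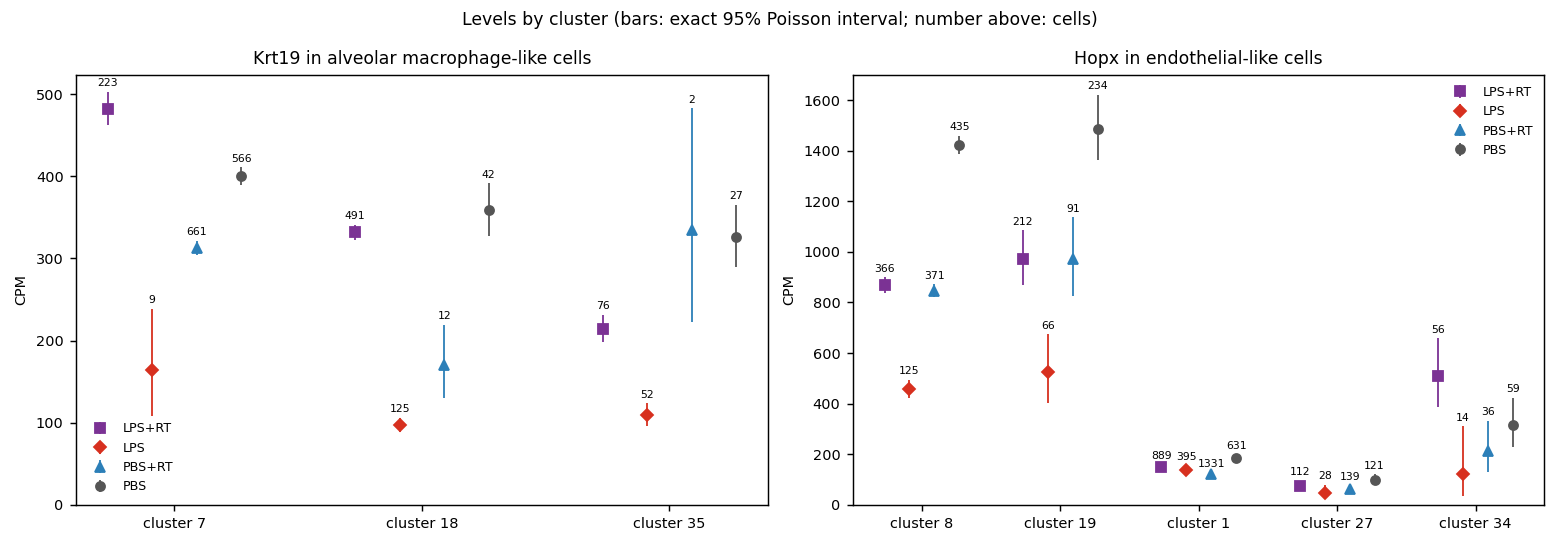
Level (vertical axis, CPM, linear scale from 0) of Krt19 in the 3 alveolar macrophage-like clusters (left) and of Hopx in 5 endothelial-like clusters (right) by library (symbols), with exact 95% Poisson intervals and the number of cells above each point. LPS is the lowest library for Krt19 in all 3 clusters, and PBS the highest for Hopx in clusters 8, 19, 1 and 27.

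Over the 63 sums of a class in a library with at least 50 cells, the gene outside the set whose log2(CPM + 1) was most like each member's was sought. These sums share libraries, depth and free RNA, so Pearson's r is a description. The closest were Mal2 for Ager (r = 0.968), Pitpnm3 for Hopx (0.875), Sec14l3 for both Akap5 (0.960) and Cldn18 (0.981), Myh14 for Krt7 (0.966) and Aqp5, the water channel of type 1 cells, for both Krt8 (0.930) and Krt18 (0.897). Likeness was lower for Krt19 (Sema3e, r = 0.822) and Sfn (Krtcap3, r = 0.751), and Cldn4 was too low to be compared.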

How the data were processed

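The deposited files are filtered matrices of UMI counts per gene and cell, whole numbers; per the file headers, the authors' counting program was Cell Ranger 7.0.1. The submitters' processing notes name the build mm10 and, as tools, Seurat 4.3.0, R 4.2.2 and Cell Ranger 7. Whether introns were counted and which strand was used are not given in the sources used here. Barcodes numbered 10996 in LPS+RT, 9572 in LPS, 6708 in PBS+RT and 10083 in PBS, with 78669568, 80013887, 69119644 and 65995600 UMIs in the same libraries. Cell barcodes that libraries may share were not analysed here.

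A cell was kept if it had 500 UMIs or more, 200 genes or more and no more than 10% of its UMIs from mitochondrial genes. A reimplementation of Scrublet marked 319 doublets (3.22%) in LPS+RT, 153 (1.67%) in LPS, 123 (1.94%) in PBS+RT and 125 (1.38%) in PBS, which were removed. Cells were clustered on 2000 variable genes, 30 components and 15 neighbours by the Leiden method (resolution 1.5, seed 7) without the 10 genes. A cluster was named when at least 3 markers and 40% of a type's list were found in at least 10% of its cells at 2-fold or more over the rest. These thresholds were set after the clusters were seen. Shallow clusters (median under 0.333 of their own libraries' medians) with no marker of the name among their top genes stayed unnamed, and 7 of 43 clusters (18.7% of cells) have no name. Names rebuilt this way can differ from the authors' own.

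UMIs were summed per class and library and scaled to CPM with exact 95% Poisson intervals. A ratio has an exact conditional binomial 95% interval, and a count of 0 was set to a floor of 3 UMIs. Shares have exact Clopper-Pearson intervals after thinning to 2000 UMIs. The ratio step was tested on simulated Poisson counts for LPS over PBS. They lack the uneven spread of UMIs between cells, so the test does not cover calls that rest on single cells. True 1.5-fold changes were called in 20.9% in alveolar type 1-like and 8.96% in alveolar type 2-like cells. For 2-fold changes it was 49.3% and 50.7% in the same classes. A gene not counted as apart is therefore not shown to be unchanged. No p-value was computed. The genes and lists were chosen with earlier results of these data known. The 20 other alveolar type 1 genes include the 10 markers that named alveolar type 1-like cells. From each list the genes that reached 20 CPM and had the largest log2 ratios are named, 2 to 4 a list and comparison; for each of the 10 genes the most correlated other gene is named. Alternatives tried were at least 1000 UMIs, at most 20% mitochondrial UMIs, doublets kept, naming by each cell's own score, resolution 3, the 10 genes allowed in clustering, equal weight of cells, another class total, subtraction of the lymphocyte-like level, 2-fold, at least 10 UMIs, thinning to 1000 UMIs and no filter on low values. Single clusters, and each library without its cell with most UMIs of a gene, were added after the data were seen. Tools were Python 3.11.15 with leidenalg 0.10.2 on python-igraph 0.11.9, scikit-learn 1.9.0, scipy 1.17.1, numpy 2.4.6 and pandas 2.3.3; figures used matplotlib 3.10.9. Gene positions are from GENCODE M21 on GRCm38. Promoters are from RefSeq and were matched by symbol for 9 of the 10 genes; Krt19 is named only.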

Additional observations from a re-analysis of the deposited data

Results flagged for a closer look

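The ratio of irradiated over unirradiated libraries went in opposite directions with PBS and with LPS for Hopx in 2 of the classes searched. For Hopx only alveolar type 1-like, alveolar type 2-like and endothelial-like cells were searched, and other classes showed the same directions. Fibroblast-like cells had 127 CPM in LPS+RT, 57.2 in LPS, 112 in PBS+RT and 238 in PBS. B cell-like cells had 43.5 CPM in LPS+RT, 19.7 in LPS, 29.7 in PBS+RT and 79.2 in PBS. NK cell-like, T cell-like and innate lymphoid-like cells were lower with X-rays in both pairs, and lymphatic endothelial-like cells higher in both. In alveolar type 2-like cells the log2 ratio was -1.64 for PBS+RT over PBS and 1.18 for LPS+RT over LPS. In the PBS library 1 cell held 91 of the 160 Hopx UMIs of this class, and without the top cell of each library the log2 ratio was -0.76 for PBS+RT over PBS and 1.15 for LPS+RT over LPS. With cells weighted equally LPS+RT over LPS was -0.45, so the opposite directions were lost, and in the cells split from cluster 30 neither comparison was apart (-0.19 for PBS+RT over PBS and 0.31 for LPS+RT over LPS). In endothelial-like cells it was -1.30 for PBS+RT over PBS and 0.83 for LPS+RT over LPS. As given above, PBS+RT lay less far below PBS within clusters 8 and 19 than in this class, and LPS+RT and LPS were close in cluster 1. Cluster 5, with endothelial and platelet markers, stayed unnamed and outside this class. It held 409 cells in LPS+RT, 85 in LPS, 222 in PBS+RT and 806 in PBS. The part of the mix of clusters was not tested. Each group is 1 library, so the difference was not tested.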

How the results depend on the processing

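Depth and 1 library a group limit every comparison, and single deep cells weigh most in the 38 to 78 alveolar type 2-like cells a library. No paired analysis was possible because each group is 1 library. Across 14 alternatives Hopx stayed apart between LPS and PBS in both alveolar classes, as did Akap5 between LPS+RT and PBS+RT and Sfn between LPS+RT and LPS in alveolar type 2-like cells. The number of genes apart moved by over 1.5 times as follows, and the cause was not tested. In alveolar type 1-like cells, LPS over PBS gave 3 and, with cells named by their own score, 6 (Krt18 no longer among them). LPS+RT over PBS+RT gave 1, but 2 with at least 1000 UMIs, with cells weighted equally or with the class total without mitochondrial, ribosomal protein and hemoglobin genes, 0 at 2-fold and 4 in cluster 36. LPS+RT over LPS gave 2, but 6 by own score and 1 in cluster 36. PBS+RT over PBS gave 2, but 1 at resolution 3 (Hopx lost), 0 at 2-fold and 5 in cluster 36. In alveolar type 2-like cells, 2-fold gave 2 in place of 4 for LPS over PBS, 1 in place of 3 for LPS+RT over PBS+RT and 3 in place of 5 for LPS+RT over LPS, and cluster 30 alone gave 2 for LPS+RT over LPS and 1 in place of 6 for PBS+RT over PBS. With at least 1000 UMIs 8 genes in place of 5 were highest in alveolar type 1-like cells (Krt8, Krt19 and Cldn4 added), and no cluster was then named ciliated-like.

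Log2 ratios that changed sign were Krt18 for LPS over PBS in alveolar type 1-like cells (-0.14 by own score, -0.11 in cluster 36, -0.27 without the top cell) and Sfn for LPS+RT over LPS there (0.49 in cluster 36). In alveolar type 2-like cells they were Akap5 for LPS over PBS (2.55 with cells weighted equally, 0.72 in cluster 30) and for PBS+RT over PBS (-0.028 by own score), Hopx for LPS+RT over LPS (-0.45 with cells weighted equally), Krt18 for LPS+RT over LPS (0.21 with cells weighted equally, 0.34 in cluster 30) and Krt8 for LPS+RT over LPS (0.065 in cluster 30).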
